A study of Mus musculus with 24 samples.

Results

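The fibroblast growth factor (FGF) genes of the mouse digit tip are described here from ligand to feedback inhibitor. They comprise 27 of the 15055 genes in the deposited expression table: every gene named Fgf, Fgfr, Fgfbp, Spry or Spred followed by a number, together with Etv4, Etv5, Dusp4, Dusp5, Dusp6 and Fgfrl1. The same name rule also covers the coreceptor gene Kl, for which no row was found among the 15055 genes, and leaves out Il17rd. The 27 genes are 10 FGF ligand or FGF-related genes, 2 secreted binding proteins, 3 receptors, 1 decoy receptor, 2 target transcription factors and 9 feedback genes.

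FGFs are secreted ligands that bind heparan sulphate and receptor tyrosine kinases, and the receptors signal largely through RAS and the MAP kinases ERK1 and ERK2. Signalling raises transcription factors of the ETS family, Etv4 and Etv5, and also raises its own inhibitors, among them Sprouty proteins and the ERK phosphatase Dusp6, so these transcripts are widely used as readouts of pathway activity. In limb and skin, FGFs pass between mesenchyme and epithelium, and FGF signalling has been studied in the nail epithelium and the tissue beneath it during digit tip regrowth.

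Libraries came from hind limb digit tips of C57BL/6 mice, an inbred strain, aged 10 to 12 weeks, with bone, cartilage, marrow, dermis and epidermis processed as 1 piece. The digit was cut either distally, a level from which the adult mouse digit tip is known to regrow, or proximally, a level from which it is not, and total RNA depleted of ribosomal RNA was sequenced at 12, 14 or 21 days. Each of the 6 groups had 4 libraries, 24 in all, with no uncut digit among the groups compared. No label states whether the 4 libraries of each group were made from different mice, so the p-values reflect library-to-library spread alone, some of it possibly technical. Because whole digit tips were sequenced, fewer cells of a type and less RNA per cell cannot be told apart in any result below.

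The deposited values are whole numbers that behave as normalised and rounded values, not as raw read counts. Table totals ran from 15.3 to 19.4 (in units of 1e+06), the sequencing depth is unknown, and no counting interval could be given. Values below are deposited values, listed in the order of replicates 1 to 4, or means ± SD (n = 4). Differences are log2 differences of (value + 1) with their standard errors, from limma fitted over all 15055 genes; a gene is called, or said to be higher, lower, risen or fallen, where the Benjamini-Hochberg adjusted p is under 0.05. Defining markers of the labelled tissues were present: 7 of 7 listed bone genes, 5 of 6 cartilage genes, 4 of 5 marrow and erythroid genes, 5 of 5 dermal fibroblast genes and 7 of 7 epidermal genes were in the table, and none of these was at 0 throughout a group. Replicate 1 of the proximal 12 day group lay at 25.0 on the second principal component, against 43.9 to 46.9 for the other 3 of its group. It held that group's lowest values of Dusp6, Etv4 and Etv5, so these genes are given with and without it. Replicate 4 of the proximal 14 day group also lay away from its group on that component, at -17.4 against -3.0 to 1.1.

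Promoter sequences are shown for 4 genes. Fgf10 and Spry2 are the 2 members called between levels on all 3 days, and Dusp6 had the smallest adjusted p between levels. Fgfrl1 has the 1 member promoter that holds the ETS letters searched. Each sequence is the 250 bases before a RefSeq start site, 5′ to 3′ on the gene's own strand, from RefSeq on build GRCm38.p6. They lie at chr13:118714449-118714698 on the plus strand (Fgf10), chr14:105896820-105897069 on the minus strand (Spry2), chr10:99262981-99263230 on the plus strand (Dusp6) and chr5:108693979-108694228 on the plus strand (Fgfrl1), and none of the 4 overlaps an annotated exon. Capitals mark the ETS letters CCGGAAG and the GC-box letters GGGCGG, each searched on both strands, so that GGGCGG on the other strand reads CCGCCC here.
Fgf10: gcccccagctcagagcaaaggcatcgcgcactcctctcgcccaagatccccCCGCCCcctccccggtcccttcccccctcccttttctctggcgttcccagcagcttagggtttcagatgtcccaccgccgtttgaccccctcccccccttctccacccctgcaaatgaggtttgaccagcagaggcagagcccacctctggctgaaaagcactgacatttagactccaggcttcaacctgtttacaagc
Spry2: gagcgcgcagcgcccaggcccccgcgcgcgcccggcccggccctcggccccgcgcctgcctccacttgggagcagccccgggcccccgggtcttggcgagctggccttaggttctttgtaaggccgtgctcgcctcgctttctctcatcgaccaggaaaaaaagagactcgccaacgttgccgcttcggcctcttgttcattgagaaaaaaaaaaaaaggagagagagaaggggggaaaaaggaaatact
Dusp6: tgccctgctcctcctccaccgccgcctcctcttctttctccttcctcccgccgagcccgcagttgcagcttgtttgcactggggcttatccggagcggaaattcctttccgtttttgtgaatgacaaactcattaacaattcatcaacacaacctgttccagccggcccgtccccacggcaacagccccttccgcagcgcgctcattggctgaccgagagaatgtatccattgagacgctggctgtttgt
Fgfrl1: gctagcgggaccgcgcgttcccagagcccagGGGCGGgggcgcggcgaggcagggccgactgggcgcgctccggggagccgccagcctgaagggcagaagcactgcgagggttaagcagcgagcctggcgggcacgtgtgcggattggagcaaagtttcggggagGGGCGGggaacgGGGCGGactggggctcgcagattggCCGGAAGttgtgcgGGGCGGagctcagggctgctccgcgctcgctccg
RefSeq promoters were matched for 22 of the 27 members. Over windows that also take in 50 bases after the start, the ETS letters occurred in 1 of these 22 genes (4.55%), Fgfrl1, where the match begins 48 bases before the start. Of the 10756 genes of the table with a promoter, 2000 (18.6%) held these letters in at least 1 promoter, as did 8.86% of all 32851 promoters. GC-box letters, a search chosen after the data were seen, occurred in 14 of the 22 members (63.6%) and in 67.2% of the table's genes. A match is a description of letters, not a binding site, and its absence from a window says nothing about the factor.

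Levels of the 27 genes differed widely when divided by the gene length given with the deposited values. Fgfbp1, a secreted carrier that releases FGFs from matrix heparan sulphate, had the highest mean value per kilobase at 676.8. The receptors Fgfr2 at 491.6 and Fgfr3 at 426.2 followed, then the phosphatase Dusp6 at 367.0 and Fgfr1 at 304.6. Among ligands, Fgf22 led with a mean of 206.1 per kilobase, ahead of Fgf1 at 46.3 and Fgf7 at 40.7. The lowest were Fgf14 at 5.34 and Fgf9 at 4.20 per kilobase. Ranges over the 24 libraries overlapped between neighbours throughout this order; Fgfr2, for example, ran from 395.4 to 617.8 and Fgfr3 from 254.7 to 676.7 per kilobase. In deposited values, 23 of the 27 had a mean of at least 50, and the 4 below that, Fgf9, Fgf11, Fgf14 and Fgf18, are the members for which the added 1 most shrinks a fold change. Exons of 10 members share bases with another annotated gene, the longest stretch being 585 bases between Fgf2 and Nudt6 on opposite strands, and whether reads were counted by strand is not stated in the labels or notes used here. Fgfr2 shares 210 bases with Ctbp2 and Fgf2 shares 255 bases with Gm43439 on the same strand, where counting by strand would not separate them. How reads in shared bases were counted is not known here. The values of Fgf2, Fgf10, Fgf14, Fgf22, Fgfr1, Fgfr2, Fgfr3, Spry1, Spred3 and Dusp5 may therefore include reads of the partner or lack some of their own.

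**Figure D1:**
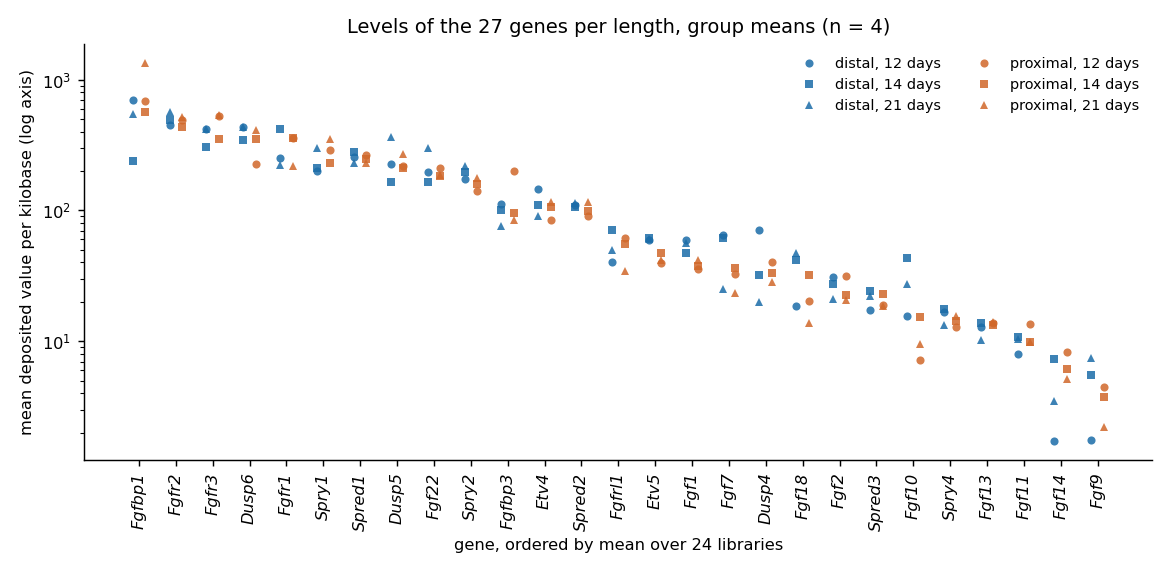
Mean deposited value per kilobase of gene length for the 27 FGF genes, 1 gene per column on the horizontal axis and a log scale on the vertical. Each mark is the mean of 1 group (n = 4), coloured by amputation level and shaped by day. Genes run from Fgfbp1, with a mean over all libraries of 676.8, to Fgf9, with 4.20.

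Among the secreted ligands, 1 differed between levels on all 3 days. Fgf10, a mesenchymal ligand of the epithelial form of Fgfr2 that is required for limb bud outgrowth, was 2.17 to 2.81 times higher after distal amputation on the (value + 1) scale. The gene spans chr13:118669791-118792115 in the GENCODE annotation of build GRCm38, and the RefSeq start shown above lies inside that span. Fgf10 stood at 57, 88, 74 and 66 in the distal libraries and at 39, 20, 45 and 29 in the proximal libraries at 12 days. By day 14, Fgf10 was at 184, 165, 210 and 243 distally and at 77, 57, 87 and 63 proximally. On day 21, Fgf10 read 98, 142, 80 and 186 distally and 37, 39, 57 and 41 proximally. Every distal library lay above every proximal library of the same day, and both levels peaked at 14 days. The log2 difference between distal and proximal was 1.12 ± 0.25 at 12 days (limma adjusted p = 0.00284), 1.49 ± 0.25 at 14 days (adjusted p = 0.00338) and 1.46 ± 0.25 at 21 days (adjusted p = 4.42e-04).

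Fgf7, the keratinocyte growth factor made by fibroblasts, was called between levels at 12 days. Values of Fgf7 at 12 days were 206, 188, 260 and 195 after distal and 115, 92, 132 and 83 after proximal amputation. For Fgf7 the 14 day values were 234, 178, 131 and 258 distally and 101, 104, 158 and 108 proximally. Fgf7 at 21 days had distal values of 63, 106, 38 and 119 and proximal values of 95, 63, 72 and 71. All 4 distal libraries exceeded the proximal ones at 12 days, while the groups overlapped at 14 and 21 days. The difference was 1.01 ± 0.27 at 12 days (limma adjusted p = 0.0115), 0.74 ± 0.27 at 14 days (adjusted p = 0.115) and 0.00 ± 0.27 at 21 days (adjusted p = 0.996). Within the distal level Fgf7 fell by 1.49 ± 0.27 from 12 to 21 days (adjusted p = 4.35e-04). Within the proximal level the value was -0.48 ± 0.27 (adjusted p = 0.202), and the difference between these changes, -1.02 ± 0.39, was not called (adjusted p = 0.0818).

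Fgf22, a relative of Fgf7 and Fgf10 known from hair follicles and synapses, was called at 21 days, where the groups overlapped. Fgf22 stood at 402, 378, 545 and 454 in the distal libraries and at 423, 494, 410 and 554 in the proximal libraries at 12 days. By day 14, Fgf22 was at 505, 296, 252 and 422 distally and at 337, 409, 380 and 519 proximally. On day 21, Fgf22 read 665, 609, 439 and 959 distally and 516, 321, 444 and 380 proximally. Of the 4 distal libraries at 21 days, 3 lay above all proximal ones, and replicate 3, at 439, did not. The difference of 0.65 ± 0.22 (limma adjusted p = 0.0429) was no longer called without distal replicate 1, 2 or 4 or without proximal replicate 2, 3 or 4, when it ran from 0.46 to 0.69, and with only the groups compared (adjusted p = 0.0803). Scaling to table totals also ended the 21 day call (0.51). From 14 to 21 days distal Fgf22 rose by 0.85 ± 0.22 (adjusted p = 0.00416).

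The 2 members of the FGF1 subfamily, ligands without a classical signal peptide, showed small or unstable differences. Values of Fgf1 at 12 days were 303, 306, 157 and 330 after distal and 112, 135, 258 and 159 after proximal amputation. For Fgf1 the 14 day values were 218, 211, 232 and 213 distally and 150, 178, 228 and 147 proximally. Fgf1 at 21 days had distal values of 378, 275, 213 and 179 and proximal values of 193, 237, 220 and 133. Fgf1 was called at 12 days with a difference of 0.73 ± 0.26 (limma adjusted p = 0.0499), although the groups overlapped: distal replicate 3 stood at 157 and proximal replicate 3 at 258. That call was lost without distal replicate 1, 2 or 4 or proximal replicate 1, 2 or 4, when the difference ran from 0.57 to 0.74. It was also lost when scaled to table totals (0.68) and with only the groups compared (adjusted p = 0.109). Fgf2, by contrast, was not called between levels on any day (-0.05 to 0.28) and fell over time at both: from 208.2 ± 24.8 at 12 days to 143.5 ± 31.6 at 21 days distally, a change of -0.55 ± 0.14 (adjusted p = 0.00558), and from 214.5 ± 19.7 to 140.2 ± 15.6 proximally, a change of -0.61 ± 0.14 (adjusted p = 0.00202).

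Fgf9 and Fgf18, ligands with known roles in the growing skeleton, changed differently at the 2 levels between 12 and 21 days. Both are near the bottom of the table's range, so single units matter. Fgf9 stood at 1, 10, 9 and 13 in the distal libraries and at 15, 23, 24 and 21 in the proximal libraries at 12 days. By day 14, Fgf9 was at 38, 19, 18 and 28 distally and at 19, 23, 15 and 13 proximally. On day 21, Fgf9 read 27, 51, 34 and 27 distally and 11, 10, 12 and 8 proximally. Distal Fgf9 thus started below proximal Fgf9 and ended above it, with no overlap at 12 or 21 days. The difference was -1.52 ± 0.42 at 12 days (limma adjusted p = 0.0123), 0.50 ± 0.42 at 14 days (adjusted p = 0.537) and 1.63 ± 0.42 at 21 days (adjusted p = 0.00998). Its 12 day value was -0.89 without distal replicate 1, which stood at 1, and -0.88 with a pseudocount of 8; a fit of only the groups compared ended the call (-1.52; adjusted p = 0.0836). From 12 to 21 days distal Fgf9 rose by 2.21 ± 0.42 (adjusted p = 5.31e-04), while the proximal change was -0.94 ± 0.42 (adjusted p = 0.0927). The difference between these changes was 3.16 ± 0.59 (adjusted p = 9.76e-04), the largest of the 27 members in size, and 2.08 with a pseudocount of 8.

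Fgf18 followed a related course. Values of Fgf18 at 12 days were 9, 22, 42 and 16 after distal and 13, 38, 20 and 26 after proximal amputation. For Fgf18 the 14 day values were 69, 52, 25 and 52 distally and 22, 43, 44 and 42 proximally. Fgf18 at 21 days had distal values of 52, 76, 46 and 51 and proximal values of 16, 7, 29 and 13. The levels overlapped at 12 and 14 days and separated at 21 days, when the lowest distal library stood at 46 and the highest proximal one at 29. At 21 days the difference was 1.86 ± 0.42 (limma adjusted p = 0.00478). Distal Fgf18 rose by 1.47 ± 0.42 from 12 to 21 days (adjusted p = 0.0143), a call lost without distal 12 day replicate 1, when it was 1.13. Over the same days the proximal change was -0.61 ± 0.42 (adjusted p = 0.296), and the 2 changes differed by 2.08 ± 0.60 (adjusted p = 0.0217). That last call was lost without distal 12 day replicate 1, at 1.74, or proximal 12 day replicate 2, at 1.84. Proximal Fgf18 was called lower at 21 days (16.2 ± 9.29) than at 14 days (37.8 ± 10.5). Leaving out proximal 14 day replicate 2, 3 or 4 or 21 day replicate 2 or 4 ended that call (-1.23 to -0.96). The distal change from 14 to 21 days was 0.24 ± 0.42 (limma adjusted p = 0.7). Most cartilage marker genes, like Fgf9, stood lower distally at 12 days, when Fgf18 overlapped between levels. The 5 measured summed to 2793 to 4334 distally and 5820 to 11615 proximally, with 3 called lower and 1 higher. At 21 days they summed to 2249 to 5931 and 1817 to 3782, with 0 called, and the change from 12 to 21 days was more positive distally for 2 of 5. None of the 5 was at 0 throughout a group, and the part of cartilage in the Fgf9 and Fgf18 values was not tested.

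The intracellular FGFs, Fgf11, Fgf13 and Fgf14, are not secreted and are known for binding voltage-gated sodium channels. Fgf14 was the member that differed most at 12 days, at 4.74 times lower distally. Fgf14 stood at 3, 9, 5 and 12 in the distal libraries and at 34, 36, 37 and 31 in the proximal libraries at 12 days. By day 14, Fgf14 was at 53, 29, 16 and 24 distally and at 30, 45, 15 and 13 proximally. On day 21, Fgf14 read 21, 11, 11 and 15 distally and 21, 27, 19 and 19 proximally. At 12 days no distal library exceeded 12 and no proximal one was under 31, whereas the groups overlapped later. The difference was -2.24 ± 0.38 at 12 days (limma adjusted p = 2.75e-04), 0.28 ± 0.38 at 14 days (adjusted p = 0.731) and -0.57 ± 0.38 at 21 days (adjusted p = 0.321). The change from 12 to 21 days was 1.01 ± 0.38 distally and -0.67 ± 0.38 proximally, neither of them called (adjusted p = 0.0604 and 0.199), and their difference of 1.67 ± 0.54 was called (adjusted p = 0.0401). It was not called with a pseudocount of 8 (1.11) or when scaled to table totals (1.59). Nor was it called without distal 12 day replicate 1 or 3, distal 21 day replicate 1 or 4, any of the proximal 12 day replicates, or replicate 1, 3 or 4 of the proximal 21 day group (1.37 to 1.72).

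Of the other two, Fgf11 was called at 12 days. Values of Fgf11 at 12 days were 26, 24, 25 and 23 after distal and 37, 35, 56 and 36 after proximal amputation. For Fgf11 the 14 day values were 39, 31, 26 and 36 distally and 39, 23, 33 and 26 proximally. Fgf11 at 21 days had distal values of 37, 28, 29 and 33 and proximal values of 31, 27, 34 and 29. Fgf11 was lower distally at 12 days without overlap, by -0.69 ± 0.18 (limma adjusted p = 0.00866), and was not called at 14 days (0.13 ± 0.18) or 21 days (0.06 ± 0.18). Between levels, its change from 12 to 21 days differed by 0.76 ± 0.25 (adjusted p = 0.0465), a call lost (0.60 to 0.80) without any one of the distal 12 day replicates, distal 21 day replicate 1, 3 or 4, proximal 12 day replicate 1 or 3, or proximal 21 day replicate 1, 2 or 4. Scaling to table totals also ended that call (0.67). Fgf13 ranged from 25 to 78 over the 24 libraries and was called in none of the 10 comparisons.

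**Figure D2:**
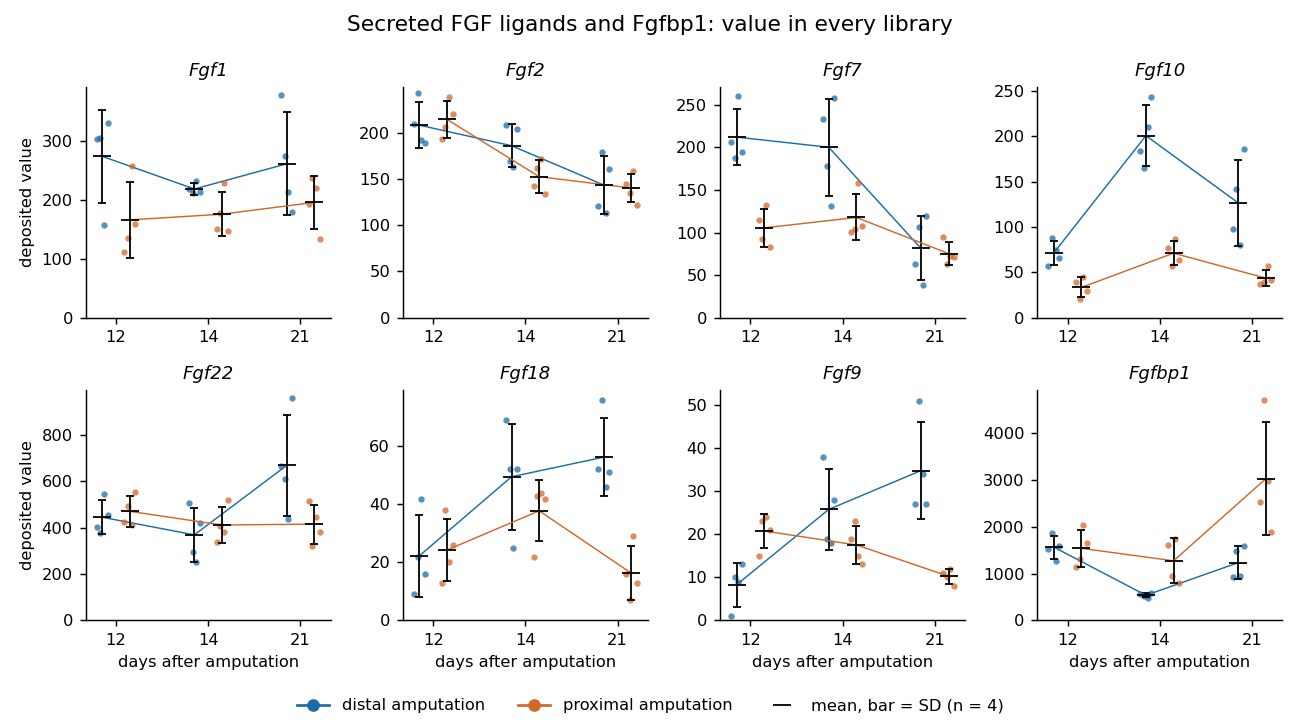
Deposited value of the 7 secreted ligands and Fgfbp1 in every library against days after amputation, with the 3 days evenly spaced; coloured points are libraries, lines join group means, bars are SD (n = 4), and each panel has its own axis from 0. Distal Fgf10 lies above proximal Fgf10 on every day, and distal and proximal Fgf9 cross between 12 and 21 days.

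Of the 2 secreted binding proteins, Fgfbp1 was called between levels at 14 and 21 days and Fgfbp3 at 12 days. Fgfbp1 stood at 1529, 1872, 1273 and 1602 in the distal libraries and at 1140, 1324, 2052 and 1652 in the proximal libraries at 12 days. By day 14, Fgfbp1 was at 567, 520, 486 and 576 distally and at 1619, 943, 1747 and 791 proximally. On day 21, Fgfbp1 read 929, 1484, 940 and 1585 distally and 2536, 4723, 2983 and 1884 proximally. Fgfbp1 overlapped at 12 days and was lower in every distal library at 14 and 21 days, with the widest spread among proximal libraries at 21 days. Its difference was 0.05 ± 0.26 at 12 days (limma adjusted p = 0.923), -1.17 ± 0.26 at 14 days (adjusted p = 0.0163) and -1.26 ± 0.26 at 21 days (adjusted p = 0.00272). The 14 day call was lost without proximal replicate 1 (-1.03) or 3 (-0.99). Between 12 and 14 days distal Fgfbp1 fell by 1.53 ± 0.26 (adjusted p = 3.79e-04), then rose by 1.16 ± 0.26 to 21 days (adjusted p = 0.00165). Proximal Fgfbp1 rose by 0.93 ± 0.26 from 12 to 21 days (adjusted p = 0.0108; 0.69 and not called without proximal 21 day replicate 2, at 4723), and the 2 changes from 12 to 21 days differed by -1.31 ± 0.37 (adjusted p = 0.0212). Fgfbp1 is known as a keratinocyte product, and 7 epidermal marker genes summed to 198511 to 316620 distally and 250275 to 499823 proximally at 14 days, and to 333165 to 506519 and 419605 to 611703 at 21 days. Of these 7 genes, 0 were called between levels at 14 days and 2 were lower distally at 21 days. At 12 days they summed to 371405 to 438966 distally. Distally 2 were lower and 0 higher at 14 than at 12 days. From 14 to 21 days 3 were higher and 0 lower distally. Their part in the Fgfbp1 values was not tested.

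Fgfbp3, the other carrier, was lower distally at 12 days. Values of Fgfbp3 at 12 days were 178, 155, 246 and 215 after distal and 280, 407, 368 and 375 after proximal amputation. For Fgfbp3 the 14 day values were 218, 167, 158 and 171 distally and 213, 138, 147 and 183 proximally. Fgfbp3 at 21 days had distal values of 192, 140, 127 and 84 and proximal values of 154, 155, 209 and 83. No distal library reached the proximal range at 12 days, and the groups overlapped afterwards. Its difference was -0.85 ± 0.24 at 12 days (limma adjusted p = 0.0155), and -0.74 and not called without distal replicate 2; it was 0.08 ± 0.24 at 14 days and -0.13 ± 0.24 at 21 days. Proximal Fgfbp3 fell by 1.31 ± 0.24 from 12 to 21 days (adjusted p = 3.46e-04). The distal change was -0.58 ± 0.24 (adjusted p = 0.0841), and the difference between these changes, 0.72 ± 0.34, was not called (adjusted p = 0.168).

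Of the 3 receptors, Fgfr1 was called between levels at 12 days and Fgfr3 at 21 days. Fgfr1, the main receptor of mesenchymal cells, spans chr8:25513654-25575718. Fgfr1 stood at 2250, 2623, 2554 and 2563 in the distal libraries and at 4028, 2899, 3733 and 3561 in the proximal libraries at 12 days. By day 14, Fgfr1 was at 3547, 4268, 4619 and 4110 distally and at 3457, 3262, 3603 and 3785 proximally. On day 21, Fgfr1 read 2188, 2076, 2384 and 2132 distally and 2112, 2531, 1944 and 1965 proximally. At 12 days every distal library was below every proximal one, at 14 days the ranges overlapped with the distal mean higher, and at 21 days the ranges overlapped at lower values. The difference was -0.50 ± 0.10 at 12 days (limma adjusted p = 0.00105), 0.23 ± 0.10 at 14 days (adjusted p = 0.189) and 0.04 ± 0.10 at 21 days (adjusted p = 0.796). Distal Fgfr1 rose by 0.72 ± 0.10 from 12 to 14 days (adjusted p = 3.71e-05) and fell by 0.91 ± 0.10 from 14 to 21 days (adjusted p = 6.58e-07). The proximal change from 12 to 14 days was 0.00 ± 0.10 (adjusted p = 0.986), and proximal Fgfr1 fell by 0.73 ± 0.10 from 14 to 21 days (adjusted p = 1.28e-05). The changes from 12 to 21 days differed between levels by 0.55 ± 0.14 (adjusted p = 0.0102), or 0.45 and not called when values were scaled to table totals (adjusted p = 0.053). Marker genes of dermal fibroblasts moved alongside: the 5 summed to 206611 to 336787 distally and 413247 to 542225 proximally at 12 days, with 2 of 5 called lower, to 417969 to 741337 and 457029 to 655723 at 14 days, and to 147585 to 193658 and 115959 to 176913 at 21 days. The part of these cells in the Fgfr1 values was not tested.

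Fgfr3, which restrains growth plate cartilage and is also made in epidermis, had lower distal means on each day. Values of Fgfr3 at 12 days were 3452, 2987, 2734 and 2894 after distal and 4396, 3467, 3108 and 4010 after proximal amputation. For Fgfr3 the 14 day values were 1823, 2048, 2447 and 2429 distally and 2455, 2927, 2374 and 2282 proximally. Fgfr3 at 21 days had distal values of 2932, 2760, 2903 and 3340 and proximal values of 3516, 3514, 3575 and 4844. At 21 days the highest distal library, 3340, was below the lowest proximal one, 3514, while the groups overlapped at 12 and 14 days. The difference was -0.30 ± 0.12 at 12 days (limma adjusted p = 0.0839), -0.20 ± 0.12 at 14 days (adjusted p = 0.368) and -0.36 ± 0.12 at 21 days (adjusted p = 0.0449). The 21 day call was lost without distal replicate 1, 2 or 3 or proximal replicate 2, 3 or 4 (-0.40 to -0.25), with median-ratio scaling (-0.32), and with only the groups compared (adjusted p = 0.0633). Both levels dipped at 14 days: distal Fgfr3 fell by 0.47 ± 0.12 from 12 to 14 days (adjusted p = 0.00983) and proximal Fgfr3 by 0.57 ± 0.12 (adjusted p = 0.00305), and both rose again by 21 days. Of the 7 epidermal marker genes, 2 were lower distally and 1 proximally from 12 to 14 days, with 0 higher. From 14 to 21 days 3 were higher distally and 1 proximally, with 0 lower. Their part in the Fgfr3 values was not tested.

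Fgfr2, the receptor through which Fgf7, Fgf10 and Fgf22 act on epithelium, was not called between levels on any day, with differences of -0.13 ± 0.09, 0.18 ± 0.09 and 0.12 ± 0.09. Its distal mean rose from 4612 ± 175.3 at 12 days to 5842 ± 404.1 at 21 days, a change of 0.34 ± 0.09 (limma adjusted p = 0.00778; 0.27 and not called when scaled to table totals). Proximal Fgfr2 was also called higher at 21 days (5379 ± 602.7) than at 14 days (4494 ± 492.7). That call was lost without proximal 14 day replicate 3 or 4 or 21 day replicate 2 or 4 (0.19 to 0.25). With only the groups compared it was lost too (0.26). The table gives 1 value per gene, so the epithelial and mesenchymal forms of the receptors were not told apart.

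Fgfrl1 encodes a receptor-like protein that binds FGFs and lacks the kinase domain. Fgfrl1 stood at 116, 84, 127 and 125 in the distal libraries and at 159, 206, 201 and 120 in the proximal libraries at 12 days. By day 14, Fgfrl1 was at 267, 144, 177 and 197 distally and at 153, 134, 156 and 170 proximally. On day 21, Fgfrl1 read 155, 125, 135 and 136 distally and 105, 66, 97 and 114 proximally. Its order reversed: distal values were mostly lower at 12 days, with overlap, and all higher at 21 days. The difference was -0.58 ± 0.19 at 12 days (limma adjusted p = 0.0363), 0.32 ± 0.19 at 14 days (adjusted p = 0.364) and 0.55 ± 0.19 at 21 days (adjusted p = 0.054). The 12 day call was lost without distal replicate 1 or 2 or proximal replicate 1, 2 or 3 (-0.61 to -0.45) and with only the groups compared (adjusted p = 0.0698). Distal Fgfrl1 rose by 0.77 ± 0.19 from 12 to 14 days (adjusted p = 0.00756), and proximal Fgfrl1 fell by 0.83 ± 0.19 from 12 to 21 days (adjusted p = 0.00265). These 12 to 21 day changes differed by 1.13 ± 0.27 (adjusted p = 0.00742).

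**Figure D3:**
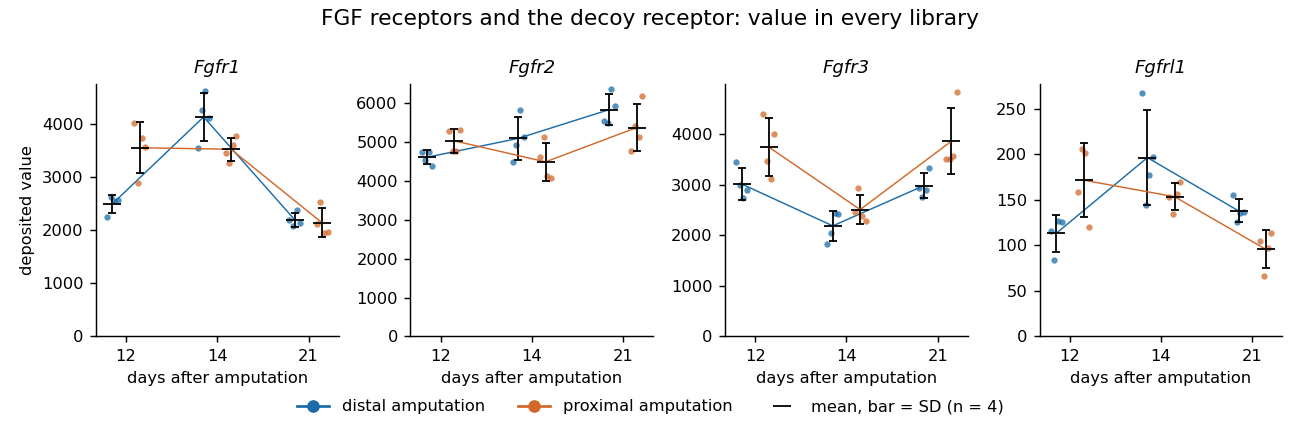
Deposited value of the 3 receptors and the decoy receptor in every library against days after amputation, with the 3 days evenly spaced; points are libraries, lines join group means, and bars are SD (n = 4). Distal Fgfr1 climbs to a mean of 4136 at 14 days from 2498 at 12 days, while proximal Fgfr1 is level between these days.

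The pathway's target and feedback transcripts did not move as a block. At 12 days Dusp6, Etv4, Etv5 and Spry2 were higher after distal amputation, Spry1 was lower, and Spry4, Spred1, Spred2, Spred3, Dusp4 and Dusp5 were not called. Dusp6, the cytoplasmic phosphatase of ERK, lies at chr10:99263231-99267489. Values of Dusp6 at 12 days were 1367, 1223, 1446 and 1391 after distal and 561, 809, 783 and 687 after proximal amputation. For Dusp6 the 14 day values were 1340, 804, 1045 and 1157 distally and 1187, 1192, 935 and 1058 proximally. Dusp6 at 21 days had distal values of 1506, 1363, 1327 and 1267 and proximal values of 1526, 1399, 1093 and 1121. At 12 days the lowest distal library, 1223, stood above the highest proximal one, 809, and the groups overlapped on the later days. The difference was 0.94 ± 0.14 at 12 days (limma adjusted p = 5.26e-05), or 0.84 without proximal replicate 1 and still called; it was -0.03 ± 0.14 at 14 days (adjusted p = 0.944) and 0.10 ± 0.14 at 21 days (adjusted p = 0.658). Proximal Dusp6 rose by 0.63 ± 0.14 from 12 to 14 days (adjusted p = 0.00352) and by 0.85 ± 0.14 from 12 to 21 days (adjusted p = 8.06e-05), while the distal change from 12 to 21 days was 0.01 ± 0.14 (adjusted p = 0.968). These changes differed by -0.85 ± 0.19 (adjusted p = 0.00511).

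Etv4 and Etv5 are ETS-family transcription factors that FGF signals induce in limb mesenchyme. Etv4 stood at 498, 342, 454 and 500 in the distal libraries and at 173, 286, 291 and 293 in the proximal libraries at 12 days. By day 14, Etv4 was at 450, 275, 268 and 378 distally and at 389, 319, 293 and 310 proximally. On day 21, Etv4 read 303, 321, 229 and 279 distally and 276, 445, 414 and 291 proximally. Distal Etv4 was above every proximal library at 12 days and declined, so that the groups overlapped at 14 and 21 days. The difference was 0.80 ± 0.20 at 12 days (limma adjusted p = 0.0064), 0.61 and still called without proximal replicate 1, 0.04 ± 0.20 at 14 days and -0.31 ± 0.20 at 21 days (adjusted p = 0.287). Distal Etv4 fell by 0.66 ± 0.20 from 12 to 21 days (adjusted p = 0.018; -0.56 to -0.60 and not called without distal 12 day replicate 1 or 4 or distal 21 day replicate 3), the proximal change was 0.45 ± 0.20 (adjusted p = 0.0892), and the 2 differed by -1.11 ± 0.28 (adjusted p = 0.00912).

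Etv5 was higher distally at 12 and 21 days and was not called at 14 days. Values of Etv5 at 12 days were 288, 228, 247 and 217 after distal and 113, 171, 207 and 162 after proximal amputation. For Etv5 the 14 day values were 286, 242, 248 and 240 distally and 174, 192, 204 and 201 proximally. Etv5 at 21 days had distal values of 325, 212, 239 and 209 and proximal values of 190, 193, 185 and 121. Each distal library stood above each proximal library of its day. The difference was 0.61 ± 0.17 at 12 days (limma adjusted p = 0.0141), 0.40 ± 0.17 at 14 days (adjusted p = 0.181) and 0.51 ± 0.17 at 21 days (adjusted p = 0.039). At 12 days the call was lost without distal replicate 1 (0.53) or proximal replicate 1 (0.44). At 21 days it was lost without distal replicate 1 or 3 or proximal replicate 3 or 4 (0.35 to 0.56), when scaled to table totals (0.37), and with only the groups compared (adjusted p = 0.0963).

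Sprouty proteins inhibit signalling between the receptor and ERK, and 3 Sprouty genes were measured. Spry2 was the steadiest, 1.24 to 1.25 times higher distally on all 3 days. Spry2 stood at 415, 337, 331 and 372 in the distal libraries and at 285, 327, 295 and 268 in the proximal libraries at 12 days. By day 14, Spry2 was at 425, 425, 402 and 390 distally and at 325, 371, 329 and 300 proximally. On day 21, Spry2 read 470, 459, 433 and 468 distally and 353, 323, 426 and 364 proximally. No distal library overlapped the proximal ones of its day, and both group means were highest at 21 days. The difference was 0.31 ± 0.09 at 12 days (limma adjusted p = 0.0178), 0.31 ± 0.09 at 14 days (adjusted p = 0.0427) and 0.33 ± 0.09 at 21 days (adjusted p = 0.0147). Scaling to table totals ended all 3 calls (0.26, 0.32 and 0.18), and fitting only the groups compared ended those at 12 and 14 days (adjusted p = 0.0608 and 0.0947). So did leaving out distal replicate 1 (0.24) or proximal replicate 4 (0.26) at 12 days, proximal replicate 2 (0.27) at 21 days, or any 14 day library except proximal replicate 2 (0.27 to 0.34). From 12 to 21 days Spry2 rose by 0.34 ± 0.09 distally (adjusted p = 0.00831; 0.27 and not called on table totals) and by 0.31 ± 0.09 proximally (adjusted p = 0.0102; 0.24 and not called without proximal 21 day replicate 3).

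Spry1 was lower distally at 12 days. Values of Spry1 at 12 days were 638, 554, 548 and 573 after distal and 784, 800, 913 and 875 after proximal amputation. For Spry1 the 14 day values were 672, 493, 623 and 642 distally and 740, 805, 623 and 512 proximally. Spry1 at 21 days had distal values of 801, 876, 800 and 982 and proximal values of 1009, 1030, 1054 and 962. Distal values were all lower at 12 days, and the groups overlapped at 14 and 21 days. The difference was -0.54 ± 0.11 at 12 days (limma adjusted p = 0.00171), -0.13 ± 0.11 at 14 days (adjusted p = 0.558) and -0.23 ± 0.11 at 21 days (adjusted p = 0.158; -0.38 and called when scaled to table totals). From 14 to 21 days Spry1 rose by 0.51 ± 0.11 distally (adjusted p = 0.0012) and by 0.62 ± 0.11 proximally (adjusted p = 3.42e-04). Spry4 ranged from 43 to 98 over all libraries and was called in none of the 10 comparisons.

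The other feedback genes were called over time and not between levels. Dusp5, a nuclear ERK phosphatase, was 558.8 ± 80.3 at 12 days, 409.5 ± 102.3 at 14 days and 905.0 ± 119.0 at 21 days after distal amputation, against 537.2 ± 81.5, 520.2 ± 127.9 and 672.5 ± 119.9 after proximal amputation. It rose by 1.16 ± 0.17 distally from 14 to 21 days (limma adjusted p = 2.91e-05). From 12 to 21 days the distal rise was 0.70 ± 0.17 (adjusted p = 0.00591) and the proximal change 0.32 ± 0.17 (adjusted p = 0.177), and the difference between them was 0.38 ± 0.25 (adjusted p = 0.333). Dusp4, a nuclear phosphatase of MAP kinases, fell distally by 1.71 ± 0.45 from 193.5 ± 95.9 at 12 days to 54.2 ± 16.2 at 21 days (adjusted p = 0.00838). The proximal change was -0.37 ± 0.45 (adjusted p = 0.575), and the difference between levels, -1.34 ± 0.64, was not called (adjusted p = 0.171).

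Spred proteins are membrane-bound relatives of Sprouty that hold back RAS. Spred1 had a distal mean of 1900 ± 122.4 at 14 days and 1565 ± 77.9 at 21 days, a change of -0.28 ± 0.07 (limma adjusted p = 0.00225). Further calls over time in this family each depended on single libraries. When scaled to table totals, the proximal Spred1 and distal Spred3 calls below were also lost (-0.19 and 0.46). Proximal Spred1 changed by -0.22 ± 0.07 from 12 to 21 days (adjusted p = 0.017; -0.19 and not called without 12 day replicate 1 or 4 or 21 day replicate 1 or 4). Proximal Spred2 changed by 0.36 ± 0.12 from 12 to 21 days (adjusted p = 0.0311; 0.27 to 0.35 and not called without 12 day replicate 1 or 3 or 21 day replicate 1 or 4). Distal Spred3 changed by 0.48 ± 0.17 from 12 to 14 days (adjusted p = 0.0431; 0.38 to 0.52 and not called without any one of the libraries except 14 day replicate 4).

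**Figure D4:**
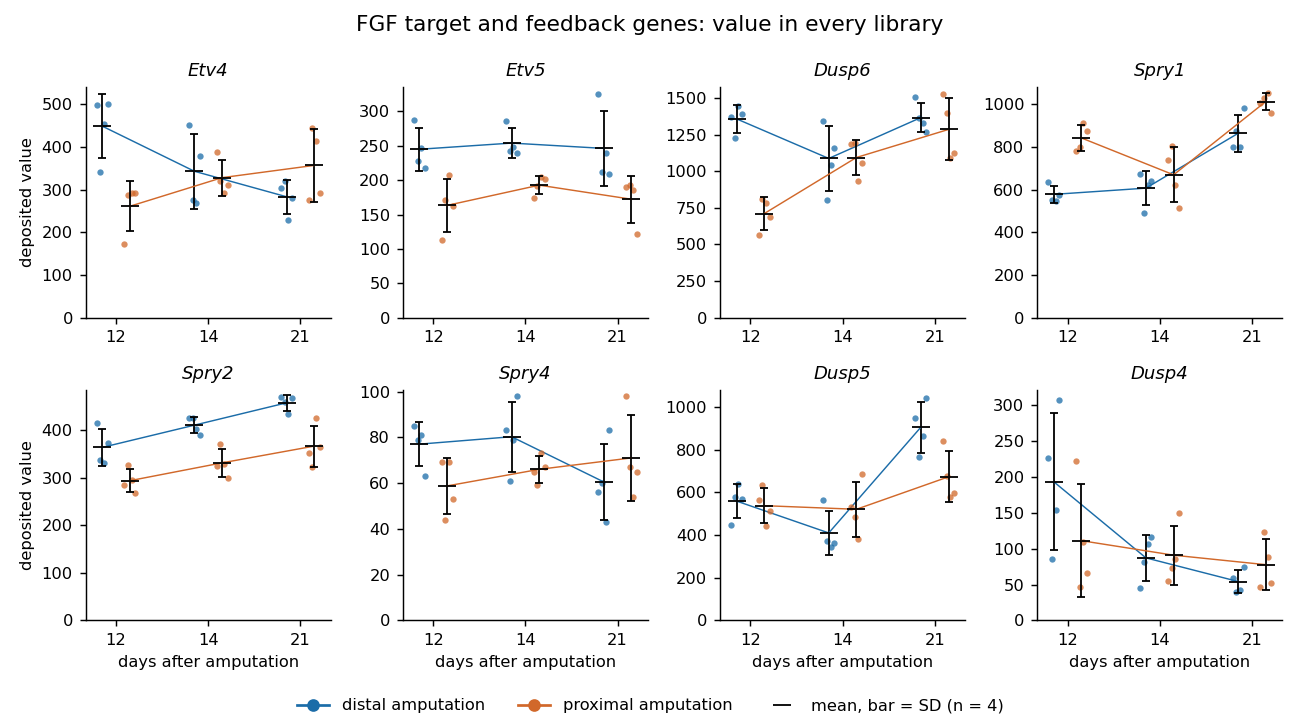
Deposited value of 8 target and feedback genes in every library against days after amputation, with the 3 days evenly spaced; points are libraries, lines join group means, and bars are SD (n = 4). Dusp6 and Etv4 are separated at 12 days and overlap later, while Spry2 is higher distally on all 3 days.

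Counted together, the members differed most between levels at 12 days. At that time 14 of 27 were called, 7 higher and 7 lower distally, beside 20.3% of all genes (9.25% higher and 11.0% lower). The higher ones were Fgf1, Fgf7, Fgf10, Etv4, Etv5, Spry2 and Dusp6, and the lower ones Fgf9, Fgf11, Fgf14, Fgfbp3, Fgfr1, Fgfrl1 and Spry1. Both target factors were thus among the higher genes, and Fgfr1, the decoy receptor and 2 of the 3 intracellular FGFs among the lower. The median difference over the 27 was -0.05, against -0.03 over all genes. The groups did not overlap for 13 members, beside 23.0% of all genes.

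At 14 days 3 of 27 were called, beside 5.39% of all genes: Fgf10 and Spry2 were higher, as were 3.06% of all genes, and Fgfbp1 was lower, as were 2.32%. Without proximal replicate 1 or replicate 3 the count was 1, and on table totals 1 gene was higher and 1 lower. The members' median was 0.18 and that of all genes 0.00, and 5 members did not overlap, beside 11.3%.

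At 21 days 8 of 27 were called, beside 17.6% of all genes. Fgf9, Fgf10, Fgf18, Fgf22, Etv5 and Spry2 were higher, beside 8.22% of all genes, and Fgfbp1 and Fgfr3 were lower, beside 9.43%. The count was 5 without distal replicate 1, proximal replicate 2 or proximal replicate 3. The split depended on scaling. On table totals, which moved the median of all genes by -0.14 in this comparison, 3 members were higher and 4 lower, with Fgf13 (-0.62) and Spry1 (-0.38) newly lower; with median-ratio factors 7 were higher and 1 lower, Fgfrl1 (0.59) having joined. The members' median was 0.04 and that of all genes -0.05, and 8 members did not overlap, beside 18.8%.

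**Figure D5:**
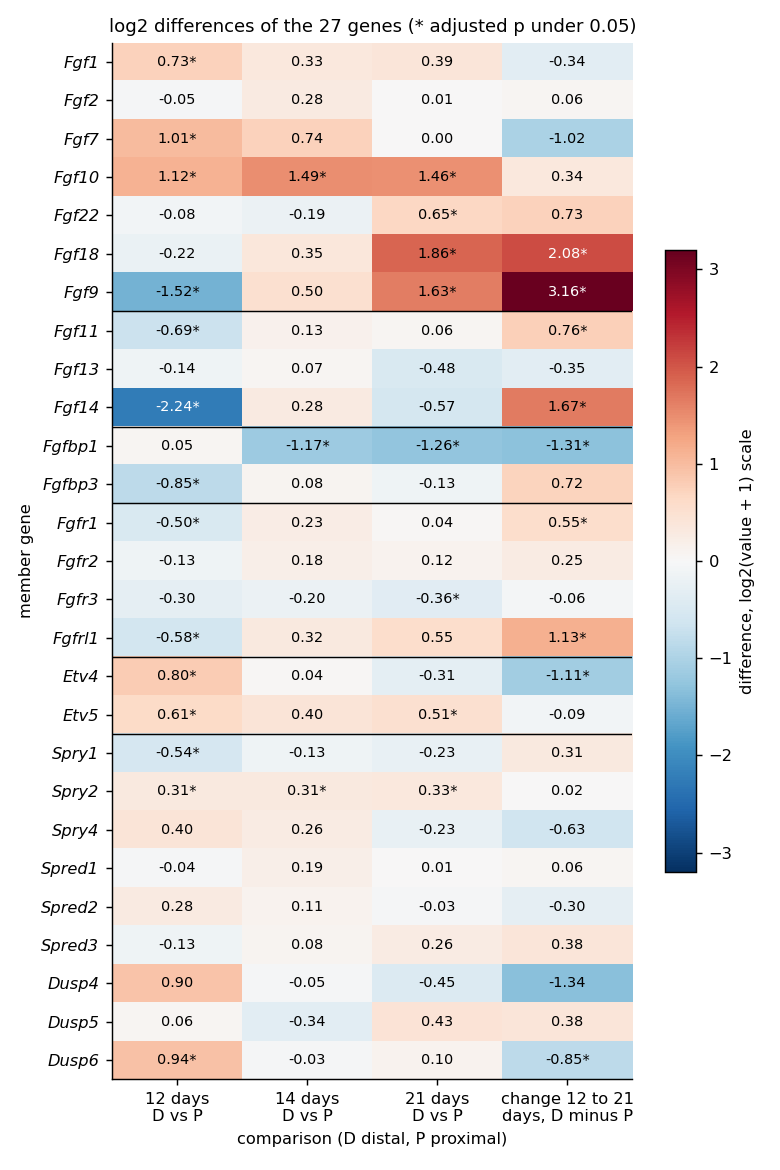
Log2 differences of (value + 1), 1 row per gene in order of role, distal minus proximal at 12, 14 and 21 days and, in the last column, the distal minus the proximal change between 12 and 21 days; red is positive, blue is negative, and a star marks a limma adjusted p under 0.05. Fgf10 and Spry2 have stars on all 3 days, and Fgf9 goes from -1.52 at 12 days to 1.63 at 21 days.

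Over time, 6 to 11 of the 27 members were called in a comparison. Proximal shares, and the distal share from 14 to 21 days, lay closer to those of all genes than the remaining distal shares did. With 1 library left out, the lowest distal counts were 7 from 12 to 14 days and 8 from 12 to 21 days. The lowest proximal count from 12 to 14 days was 4. Shares of all genes in those fits are not given, and no test compared members with all genes. Distally 9 of 27 (33.3%) were called from 12 to 14 days, beside 19.4% of all genes; 7 were higher (all genes 11.2%) and 2 lower (8.12%). From 14 to 21 days 10 distal members (37.0%) were called, beside 34.8%, with 5 higher (all genes 13.3%) and 5 lower (21.5%). Between 12 and 21 days it was 11 (40.7%) beside 23.8%, with 7 higher (all genes 8.81%) and 4 lower (15.0%). Among proximal libraries 6 members (22.2%) were called from 12 to 14 days, beside 15.2%, with 2 higher (all genes 7.35%) and 4 lower (7.84%). From 14 to 21 days 8 proximal members (29.6%) were called, beside 28.7%, with 4 higher (all genes 12.5%) and 4 lower (16.3%), and the count was 5 without 14 day replicate 3 or 21 day replicate 2 or 4. Between 12 and 21 days it was 9 (33.3%) beside 29.0%, with 4 higher (all genes 12.0%) and 5 lower (17.0%). The members did not share a course over time. Distal Fgfbp1 and Fgfr3 at both levels, for example, fell from 12 to 14 days and then rose. Fgf10 rose by 1.48 ± 0.25 distally (limma adjusted p = 3.00e-04) and by 1.11 ± 0.25 proximally (adjusted p = 0.00393) from 12 to 14 days. It then fell at both levels, by 0.72 ± 0.25 distally (adjusted p = 0.0275; -0.53 to -0.69 and not called without 14 day replicate 3 or 4 or 21 day replicate 1 or 3) and by 0.70 ± 0.25 proximally (adjusted p = 0.0392; -0.59 to -0.75 and not called without 14 day replicate 1, 3 or 4 or 21 day replicate 1, 2 or 4).

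Between 12 and 21 days the change itself differed between levels for 9 of 27 members, beside 14.8% of all genes. It was more positive distally for Fgf9, Fgf11, Fgf14, Fgf18, Fgfr1 and Fgfrl1, beside 7.42% of all genes, and more negative distally for Fgfbp1, Etv4 and Dusp6, also beside 7.42%. Of these, Fgf9, Fgf11, Fgf14 and Fgf18 have low values, and with a filter at a mean of 50, which leaves those 4 untested, 5 members were called. On table totals 3 were more positive and 4 more negative.

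Of 31 listed genes that carry the FGF signal, restrain it, partner its receptors or are induced early by it, 30 were measured. Counts of this list thus mix genes that carry the signal with genes that restrain it. At 12 days 1 was higher and 4 lower distally (16.7%, beside 20.3% of all genes), and the count was 2 without distal replicate 4 or proximal replicate 3 and 3 without distal replicate 1. Myc, an early target, was 716.2 ± 48.7 distally and 538.5 ± 64.8 proximally, a difference of 0.42 ± 0.14 (limma adjusted p = 0.0328; 0.34 to 0.42 and not called without distal replicate 1, 3 or 4 or proximal replicate 3 or 4). On table totals the Myc difference was 0.37 and not called. The lower genes were the adaptors Gab1 (-0.21 ± 0.06) and Shc1 (-0.29 ± 0.08), the RAS inhibitor Rasa1 (-0.26 ± 0.07) and Flrt2 (-0.57 ± 0.18), a membrane partner of FGF receptors. Shc1 was not called without distal replicate 4 (-0.23) or proximal replicate 3 (-0.25), Rasa1 without distal replicate 3 (-0.21), nor Flrt2 without distal replicate 1 or 4 or proximal replicate 1, 3 or 4 (-0.58 to -0.46). At 14 days 1 (3.33%, beside 5.39%) was higher, the RAS inhibitor Nf1 (0.26 ± 0.06, and 0.21 and not called without proximal replicate 3). Nf1 was also not called on table totals (0.27) or with only the groups compared (0.26). At 21 days 3 of the list were higher and 2 lower (16.7%, beside 17.6%), but 0 higher and 9 lower on table totals, so no direction can be given for that list. Leaving out distal replicate 1 took the 21 day count to 2, and leaving out distal replicate 2 or 3 or proximal replicate 3 or 4 took it to 3. In the change from 12 to 21 days, Myc (-0.79 ± 0.19; adjusted p = 0.00767) and Ccnd1, the cyclin D1 gene (-0.86 ± 0.24; adjusted p = 0.0197), were more negative distally and 1 gene more positive (10.0% in all, beside 14.8%; 5 genes were called without proximal 12 day replicate 1).

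Over time the same list had its highest count in proximal digits from 14 to 21 days, when 11 were higher and 5 lower (53.3%, beside 28.7% of all genes). That count of 16 was 10 without 14 day replicate 3, 8 when only the groups compared were fitted, and on table totals 14 were higher and 1 lower. Flrt3, a membrane partner of FGF receptors, rose from 338.0 ± 73.4 to 745.5 ± 145.9, by 1.15 ± 0.20 (limma adjusted p = 1.80e-04), and Mapk3, the gene of ERK1, from 1012 ± 100.2 to 1298 ± 61.4, by 0.36 ± 0.08 (adjusted p = 0.00119). Frs3, a docking adaptor of the receptors, fell from 55.0 ± 4.24 to 30.5 ± 7.42, a change of -0.85 ± 0.16 (adjusted p = 5.60e-04). These 3 genes were picked after their values were seen. Distally over those days 5 were higher and 6 lower (36.7%, beside 34.8%), and in the other 4 comparisons over time 4 to 6 of the 30 were called, beside 15.2% to 29.0%.

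Markers of nail and of cycling cells differed between levels at 12 and 21 days. All 6 nail markers, hair-type keratins with Hoxc13 and Foxn1, were higher distally at 12 days, when they summed to 86894 to 160376 distally and 7474 to 39200 proximally, and at 21 days, at 150313 to 422052 and 37039 to 89497; at 14 days 0 of 6 were called. Of 4 cycling-cell markers, 3 were higher distally at 12 days (sums of 9703 to 13612 against 6308 to 7938) and 4 were lower at 21 days (5627 to 7905 against 8159 to 12574). The part of nail tissue and of cycling cells in the values of Fgf10, Etv4, Etv5, Spry2 and Dusp6 was not tested.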

How the data were processed

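Digit tip RNA was sequenced in 24 libraries, 4 in each of 6 groups. The submitters' processing notes name cutadapt, STAR 2.5.4b, and Subread with featureCounts 1.6.3, and build mm10. The deposited values, treated as a score, are whole numbers for 15055 genes. Their upper quartiles lay between 902.5 and 930.5. Over the 9650 genes above 100 everywhere, values varied along 1 direction across libraries by 0.00675 (SD of natural logs), where Poisson sampling would give 0.0453, or 6.71 times as much, so the values appear normalised and rounded by a step that no label records. Error estimates are therefore likely too small.

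Members and gene lists were chosen with earlier results of these data known. A limma model (version 3.58.1, R 4.3.3; lmFit, then trended eBayes) of log2(value + 1) had 1 mean per group and used every library; its residual degrees of freedom were 18 and its prior ones 3.91. All 27 members were tested without a filter on low values, and p-values were adjusted by the Benjamini-Hochberg method over 15055 genes in each of 10 comparisons. The fit was also run on simulated data with independent normal noise for each gene. Those data lack the low-spread direction described above, so they cannot show whether the error estimates are too small. Levels per kilobase used the gene length in bases that accompanies the deposited values.

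Members called between levels or in the difference between levels are given in every library, members called over time alone by group means, and the others by range. Alternatives were median-ratio factors, table totals, adding 0.5 or 8 in place of 1, keeping genes with a mean of at least 50, only the groups compared, that low-spread direction as a covariate, a block for replicate number, and omission of single libraries. Running them on the other pathway genes was added after the data were seen.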

Additional observations from a re-analysis of the deposited data

Results flagged for a closer look

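Within groups of 4, the highest or lowest library lay far from the others by Dixon's 95% criterion in 9 of 162 sets of values, beside about 1 in 20 by chance. Low libraries were distal 12 day replicate 3 for Fgf1 (157, the others 303 to 330) and Spred1 (1629, the others 1778 to 1802), proximal 12 day replicate 1 for Etv4 (173, the others 286 to 293), proximal 14 day replicate 1 for Fgf18 (22, the others 42 to 44) and proximal 21 day replicate 4 for Etv5 (121, the others 185 to 193). High libraries were proximal 12 day replicate 3 for Fgf11 (56, the others 35 to 37), proximal 14 day replicate 3 for Fgf7 (158, the others 101 to 108), proximal 21 day replicate 4 for Fgfr3 (4844, the others 3514 to 3575) and distal 14 day replicate 1 for Dusp5 (562, the others 343 to 370). Proximal 21 day replicate 4 was thus the lowest of its group for Etv5 and the highest for Fgfr3.

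The change from 12 to 21 days differed between amputation levels for 9 members by limma's test of that difference. On the log2 scale, distal minus proximal, it was 3.16 for Fgf9, 2.08 for Fgf18, 1.67 for Fgf14, 1.13 for Fgfrl1, 0.76 for Fgf11, 0.55 for Fgfr1, -0.85 for Dusp6, -1.11 for Etv4 and -1.31 for Fgfbp1. Adjusted p-values ran from 9.76e-04 for Fgf9 to 0.0465 for Fgf11.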

How the results depend on the processing

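Across 87 member calls, no alternative reversed a direction. Calls that passed no longer numbered 2 with median-ratio factors, 15 with table totals, 0 with a pseudocount of 0.5, 1 with a pseudocount of 8, 7 with the least-spread direction as a covariate and 14 with only the groups compared; the filter at a mean of 50 ended 0 of the 72 it left tested, and leaving out 1 library ended 128 of 768. The 7 lost with that covariate included Fgf1 at 12 days, Spry2 at 14 days, and Fgf22 and Fgfr3 at 21 days. The others were distal Fgf18 and Spred3 from 12 to 14 days, and Fgf11 in the difference between levels. Table totals also ended the call of the proximal fall of Fgf10 from 14 to 21 days (-0.59). The count of members called fell from 8 to 5 at 21 days with only the groups compared, and from 9 to 5 for the distal minus proximal change between 12 and 21 days with the filter at 50, which leaves 4 members untested.

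Leaving out each library in turn gave 10 to 14 members called at 12 days, 1 to 3 at 14 days and 5 to 9 at 21 days between levels. Distally it gave 7 to 9 from 12 to 14 days, 8 to 12 from 14 to 21 days and 8 to 12 from 12 to 21 days. Proximally it gave 4 to 7, 5 to 8 and 7 to 9 over the same intervals, and 6 to 10 for the difference between levels.

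Replicates with the same number were not shown to be paired: of 36 pairs, 13 had a correlation of deviations over 0.1 (range -0.307 to 0.686), 13 correlated best with their own number, and in 0 comparisons did every pair exceed 0.1. With the replicate number as a block, 13, 2 and 9 members were called between levels at 12, 14 and 21 days. Over the 3 intervals the block gave 8, 11 and 11 distally and 5, 8 and 9 proximally, and 9 for the difference between levels. The block ended 4 calls: Fgf1 at 12 days, Spry2 at 14 days, distal Fgf18 and proximal Spry1 from 12 to 14 days.

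With table totals, the split of higher and lower members was 6 and 3 from 14 to 21 days proximally, where the median of all genes moved by 0.11; with median-ratio factors it was 7 and 4 over those days distally. The causes of these shifts were not tested. Depth is unknown, so how far it limits low members such as Fgf9 and Fgf14 cannot be given.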

Other observations

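Genes of heparan sulphate, the matrix sugar that FGFs need to bind their receptors, were measured for 22 of 23 listed carriers, synthases and modifying enzymes. Distally 9 were higher and 1 lower at 14 than at 12 days (45.5%, beside 19.4% of all genes), and 2 were higher and 11 lower at 21 than at 14 days (59.1%, beside 34.8%). Proximally 2 were higher and 0 lower in the first interval (9.09%, beside 15.2%), and 1 was higher and 9 lower in the second (45.5%, beside 28.7%). The first of these proximal counts was 1 without 12 day replicate 2 or 3 or 14 day replicate 2 or 4, and 4 on table totals. Of the distal calls from 12 to 14 days, those of Sdc4, Gpc3 and Gpc4 were lost without distal 12 day replicate 4. They were also lost without distal 14 day replicate 2. The intervals share their 14 day libraries, and no test compared them with each other or with all genes. Sulf1, an extracellular enzyme that removes sulphate groups from heparan sulphate, was 964.5 ± 104.1, 1388 ± 111.6 and 660.2 ± 18.4 distally (mean ± SD, n = 4) at 12, 14 and 21 days. Its log2 change from 14 to 21 days was -1.07 ± 0.08 distally (limma adjusted p = 4.66e-08) and -1.09 ± 0.08 proximally (adjusted p = 1.52e-08). Hspg2, the basement membrane proteoglycan perlecan, changed by -1.06 ± 0.12 distally (adjusted p = 1.12e-06) and by -1.02 ± 0.12 proximally (adjusted p = 2.82e-06) over the same days. From 14 to 21 days markers of several cell types fell too. Dermal fibroblast genes fell for 5 of 5 distally and 4 of 5 proximally, and endothelial genes for 5 of 5 at both levels. Bone genes fell for 6 of 7 distally and 5 of 7 proximally. Osteoclast genes fell for 4 and 1 of 4, and macrophage genes for 4 and 1 of 5. Epidermal genes rose for 3 and 1 of 7, with 0 fallen. From 12 to 14 days dermal fibroblast genes rose for 4 of 5 distally and 0 of 5 proximally. Endothelial genes rose for 0 and 3 of 5. The part of these cell types in the values above was not tested.

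Between levels, 1 of the 22 was higher and 4 lower distally at 12 days (22.7%, beside 20.3%), 3 higher and 0 lower at 14 days (13.6%, beside 5.39%), and 6 higher and 2 lower at 21 days (36.4%, beside 17.6%; 6 and 5 on table totals). The 12 day count was 3 without distal replicate 4 or proximal replicate 1, 2 or 3, and 2 with only the groups compared. Sdc3, a syndecan, was 2672 ± 562.9 distally and 1306 ± 291.1 proximally at 14 days, a log2 difference of 1.03 ± 0.18 (limma adjusted p = 0.0044). Gpc3, a glypican, was 544.5 ± 89.7 distally and 246.2 ± 17.9 proximally at 21 days, a log2 difference of 1.13 ± 0.16 (adjusted p = 7.17e-05). The change from 12 to 21 days was more positive distally for 5 genes, among them Sulf1 (0.74 ± 0.12; adjusted p = 2.73e-04), Gpc6 (0.77 ± 0.13; adjusted p = 5.55e-04) and Sdc2 (0.87 ± 0.14; adjusted p = 2.50e-04), and more negative for 0 (22.7%, beside 14.8%). The named genes here were picked after their values were seen.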
